A study of Mus musculus with 6 samples.

Results

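The genes of MHC class II antigen presentation were examined in peritoneal macrophages of tumor-bearing mice that received nanoparticles carrying IRF5 mRNA (IRF5-NPs) or PBS. Members were the rows whose symbol starts with H2-A, H2-E, H2-DM or H2-O, together with Cd74, and this rule gave 9 of the 754 genes measured. They are the classical chains H2-Aa, H2-Ab1 and H2-Eb1, the pseudogene H2-Ea-ps, the invariant chain Cd74, the peptide-loading genes H2-DMa, H2-DMb1 and H2-DMb2, and the loading modulator H2-Ob. Ciita, the class II transactivator, was not analysed here. The family was taken up because of its values in the comparison of IRF5-NPs with PBS, so its changes are given as a description with no test.

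Per the labels, all mice were adult C57BL/6J and carried ID8 tumors, which grow from a mouse ovarian cancer cell line injected 7 weeks before treatment. One group received 2 intraperitoneal doses of PBS and the other 2 doses of nanoparticles with 30 µg of mouse IRF5 mRNA each, on days 1 and 5. F4/80+ CD11b+ macrophages were then sorted from the peritoneal lavage, and each group had 3 libraries. For this model the paper's methods name female albino B6 mice (C57BL/6J-Tyr<c-2J>) and ID8 cells that express VEGF, with another dose and another tumor age, and they describe particles that also carry IKKβ mRNA. No group with an empty or control particle was among the samples, so the effect of the particle and that of the IRF5 message cannot be told apart. The labels do not state whether each library came from a separate mouse.

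MHC class II molecules are pairs of an alpha and a beta chain that display peptides from endosomes to CD4+ T cells. The invariant chain, encoded by Cd74, guides the new pair to the endosome and blocks its groove until proteases trim it to a short remnant, which H2-DM then exchanges for other peptides and H2-O restrains. Transcription of the family depends on the factor CIITA, which docks on proteins bound to the X and Y boxes of the promoters and is induced in macrophages by interferon-γ. In the peritoneal cavity, class II is known as a mark of small, monocyte-derived macrophages, whereas large resident macrophages carry little of it.

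Expression was measured with the NanoString nCounter assay, in which color-coded probes are counted without amplification. Values are counts that the authors scaled to housekeeping genes, here called normalized counts. The underlying counts summed to 1830318, 1603281 and 1302733 in PBS replicates 1, 2 and 3 and to 1293665, 1598272 and 683472 in IRF5-NP replicates 1, 2 and 3. The background, set 2 SD above the mean of the negative controls, lay between 25.6 and 37.8 normalized counts in 5 libraries and at 79.4 in IRF5-NP replicate 3, the shallowest. PBS replicates 2 and 3 differed by no more than sampling noise (chi-square of 1.07 per degree of freedom, p = 0.0798), against 180 and 158.5 for the other PBS pairs. Among IRF5-NP libraries, replicates 2 and 3 gave 7.10 per degree of freedom, and the pairs with replicate 1 gave 97.9 and 54.1. The IRF5-NP libraries were kept as 3 samples, although replicates 2 and 3 may share a source. PBS replicates 2 and 3 were averaged and counted as 1 sample, which left 2 PBS and 3 IRF5-NP samples. Where PBS replicate 1 is left out below, the PBS group is therefore 1 sample, and the spread comes from the IRF5-NP libraries alone. A call lost in that setting need not mean a smaller change. The sort genes were above background in every library. Adgre1, the gene of F4/80, had 6523, 9145 and 9049 normalized counts with PBS and 8749, 25506 and 22544 with IRF5-NPs.

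The promoters of the family carry the boxes on which CIITA acts, and 6 of the 9 members had a promoter in the RefSeq table (250 bases before to 50 bases after each start, build GRCm38.p6). Below are the stretches of 4 of them that hold the letters GNAAC, part of the X box, followed within 20 to 35 bases by TGATTGG, the core of the Y box, with both elements in capitals. They are shown because these genes differ in how far their level lay from PBS while their promoters share this arrangement.
H2-Aa: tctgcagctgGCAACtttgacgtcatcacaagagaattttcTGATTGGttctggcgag
H2-Eb1: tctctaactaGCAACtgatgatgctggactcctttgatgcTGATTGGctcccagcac
H2-DMb1: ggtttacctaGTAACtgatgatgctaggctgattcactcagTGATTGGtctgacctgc
H2-Ob: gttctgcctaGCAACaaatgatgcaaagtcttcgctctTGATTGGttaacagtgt

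These stretches are chr17:34287857-34287914 on the minus strand for H2-Aa, and on the plus strand chr17:34305766-34305822 for H2-Eb1, chr17:34153087-34153144 for H2-DMb1 and chr17:34238808-34238862 for H2-Ob. The gap between the elements was 26, 25, 26 and 23 bases in that order. TGATTGG, searched on both strands, was present in 7.82% of all 32851 promoter windows, and the pair with its spacing in 0.426%. The shorter CCAAT, which read on the opposite strand is part of TGATTGG, was present in 37.4%. H2-DMb2 held TGATTGG without the upstream letters, and neither of the 2 annotated starts of H2-DMa held it. Among class I genes, H2-D1, H2-K1 and H2-T23 held TGATTGG on the opposite strand, and no class I window held the pair. The letters were chosen with these promoters in view, and a match describes the sequence only.

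**Figure D1:**
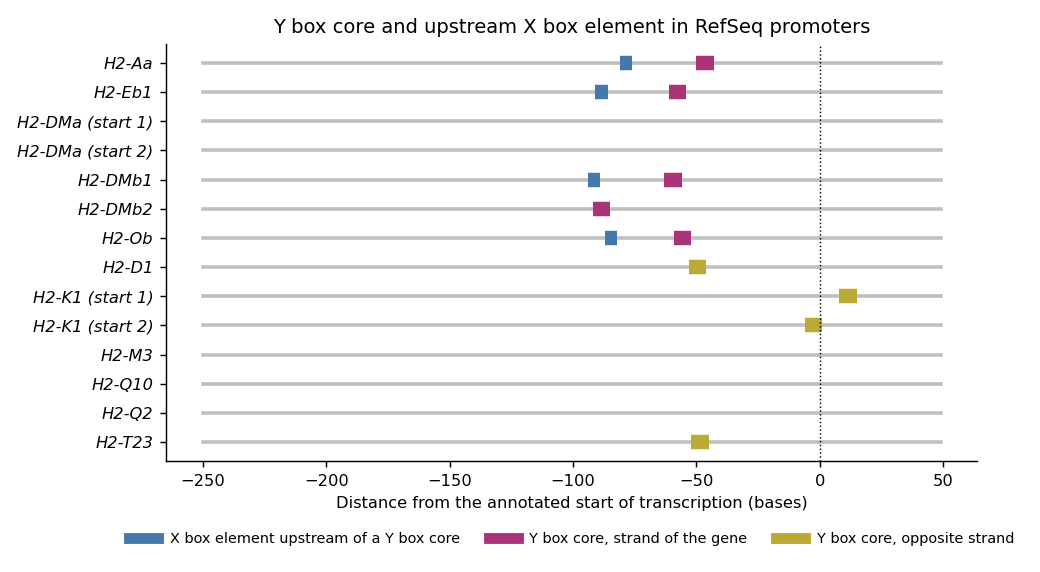
Positions of the Y box core TGATTGG and of the GNAAC element that precedes it, in bases from the annotated start of transcription (dotted line), for class II genes (upper rows) and class I genes (lower rows); each grey line is 1 RefSeq window. The 4 class II windows with both elements have the Y box core between 50 and 63 bases before the start.

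The classical chains were 7.97- to 8.82-fold lower with IRF5-NPs. H2-Aa, the alpha chain of I-A, had 45667, 62010 and 60759 normalized counts with PBS and 7648, 6067 and 5917 with IRF5-NPs. Every IRF5-NP library lay far under every PBS library, and the lowest PBS value was still 5.97 times the highest IRF5-NP value. The log2 fold change of H2-Aa was -3.03 (standard error 0.29), which leaves 12.3% of the PBS level. In a pool of sorted cells, fewer cells that carry class II and less class II RNA per cell cannot be told apart.

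H2-Ab1, the beta chain that pairs with H2-Aa, had 24673, 36364 and 35419 normalized counts with PBS and 4246, 3403 and 3594 with IRF5-NPs, and its log2 fold change was -3.00 (standard error 0.27). H2-Eb1, the beta chain of I-E, had 12620, 17093 and 16761 with PBS and 2257, 1464 and 1375 with IRF5-NPs, and its log2 fold change was -3.14 (standard error 0.29). In both genes PBS replicate 1 was the lowest PBS library and IRF5-NP replicate 1 the highest IRF5-NP library, as in H2-Aa, so that the libraries numbered 1 stood closest to the other group. H2-Ea-ps, the alpha chain partner of H2-Eb1, is a pseudogene in this strain, and C57BL/6 mice are known to lack I-E on the cell surface for this reason. Its probe read 4.15, 10.3 and 7.51 normalized counts with PBS and 13.3, 12.1 and 26.0 with IRF5-NPs, under the background in all 6 libraries, and no fold is given.

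Cd74, the invariant chain, had 69773, 100396 and 98757 normalized counts with PBS and 12800, 10495 and 10534 with IRF5-NPs. The groups did not overlap, and the log2 fold change was -2.89 (standard error 0.32). Cd74 is encoded on chromosome 18, apart from the H2 members on chromosome 17. What was left of its PBS level was 13.5%, against 12.3% for H2-Aa, 12.5% for H2-Ab1 and 11.3% for H2-Eb1.

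The peptide-loading genes were lower by less. H2-DMa, the alpha chain of the exchange factor H2-DM, had 2423, 2821 and 2970 normalized counts with PBS and 826, 941 and 1006 with IRF5-NPs, and its log2 fold change was -1.52 (standard error 0.21). H2-DMb1, one of its beta chains, had 1523, 1940 and 1814 with PBS and 483, 420 and 520 with IRF5-NPs, and its log2 fold change was -1.84 (standard error 0.21). In both genes the groups were separate and the libraries within a group lay close together. H2-DMb2, the second beta chain, had 240, 272 and 327 normalized counts with PBS and 252, 137 and 138 with IRF5-NPs. Here the groups overlapped, since IRF5-NP replicate 1 stood among the PBS libraries, and the log2 fold change was -0.67 (standard error 0.32). That of H2-DMb2 was -1.06 with background subtracted and -0.43 with libraries shifted to a common median. H2-DMb1 and H2-DMb2 are close copies, and cross-binding of their probes was not tested.

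H2-Ob, the beta chain of H2-O, which restrains H2-DM, had 153, 269 and 264 normalized counts with PBS and 131, 139 and 127 with IRF5-NPs. The groups were separate by a narrow margin, the lowest PBS library being 1.10 times the highest IRF5-NP library, and the log2 fold change was -0.61 (standard error 0.29). Without PBS replicate 1 the change of H2-Ob was -1.0035, and with background subtracted it was -1.05. With libraries shifted to a common median it was -0.37, and with quantile normalization -0.42.

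**Figure D2:**
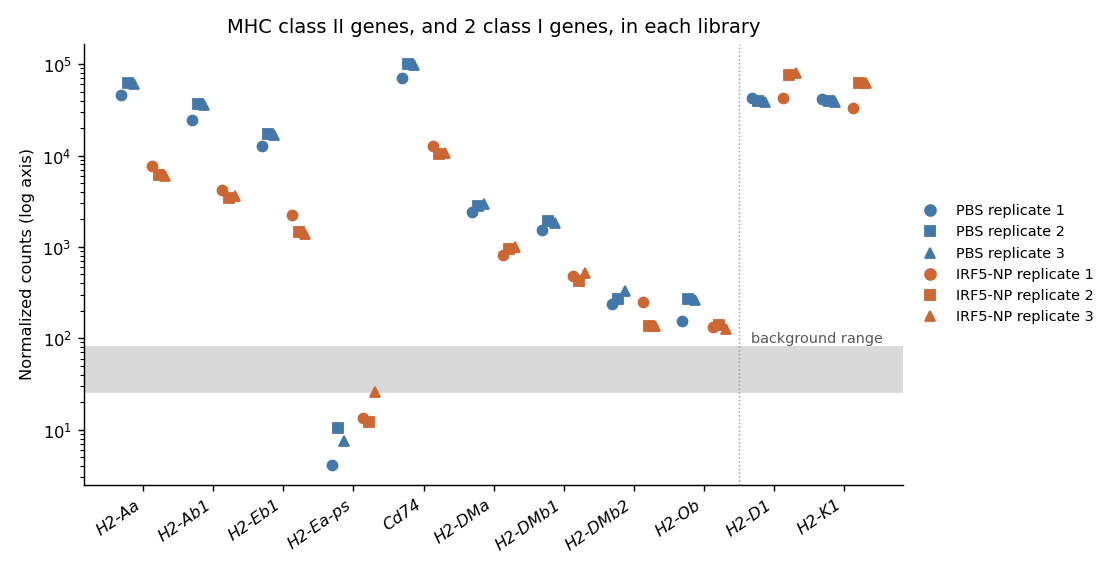
Normalized counts (log axis) of the 9 class II genes and, to the right of the dotted line, of the class I genes H2-D1 and H2-K1, with 1 point per library, PBS in blue and IRF5-NP in orange; the grey band spans the background of the 6 libraries. The classical chains and Cd74 stand far apart between groups, H2-DMb2 overlaps, and H2-Ea-ps lies under the background of its own library throughout.

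By limma's moderated test with Benjamini-Hochberg adjustment at 0.05, 6 of the 9 members were past the threshold as lower, where 7.03% of all 754 genes were, and none as higher, where 2.52% were (9.55% in either direction). In 7 of the 9, every IRF5-NP library lay under every PBS library, which 20.4% of all genes did, and in H2-Ea-ps, under the background, the order was the opposite, as in 17.0% of all genes. Since the family was chosen on this comparison, these counts describe it and support nothing. Over the 8 members above background the median log2 fold change was -2.36, against -0.03 over all genes. Ranked from the most lowered of the 754 genes, H2-Eb1 stood at 7, H2-Aa at 9, H2-Ab1 at 10 and Cd74 at 12, while H2-DMb1 stood at 33, H2-DMa at 44, H2-DMb2 at 138 and H2-Ob at 145.

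A measure that does not depend on the scaling between libraries is the share of a library's counts taken by the family. The 9 members took 8.28% of all gene counts in PBS replicate 1 (95% exact binomial interval 8.24 to 8.32), 13.3% in PBS replicate 2 (13.3 to 13.4) and 13.3% in PBS replicate 3 (13.3 to 13.4). They took 2.33% in IRF5-NP replicate 1 (2.30 to 2.35), 1.31% in replicate 2 (1.29 to 1.33) and 1.31% in replicate 3 (1.28 to 1.34). The share was thus lower in each IRF5-NP library than in each PBS library, and within each group replicate 1 stood apart from the other libraries. These intervals cover counting error only.

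Ratios between members within a library are free of the scaling as well, and they compare how far 2 probes moved, not how many molecules there were. The log2 ratio of H2-Aa to H2-Ab1, the chains of I-A, was 0.89, 0.77 and 0.78 with PBS and 0.85, 0.83 and 0.72 with IRF5-NPs, so that the alpha and beta chains stayed in the same proportion within 0.03 on average. The log2 ratio of H2-Eb1 to H2-Ab1 also overlapped between groups, with a difference of -0.15. Cd74 was higher relative to H2-Ab1 by 0.10 on the log2 scale with IRF5-NPs, a small shift without overlap. Relative to H2-Ab1, H2-DMa was higher by 1.47 and H2-DMb1 by 1.16 on the log2 scale, with all IRF5-NP libraries above all PBS libraries. The log2 ratio of H2-DMa to H2-DMb1 was 0.67, 0.54 and 0.71 with PBS and 0.78, 1.16 and 0.95 with IRF5-NPs. H2-Ob was higher relative to H2-DMb1 by 1.23, again without overlap. These ratios do not subtract the background, and H2-Ob had 127 normalized counts in IRF5-NP replicate 3, where the background was 79.4. With background subtracted, the log2 fold changes were -1.05 for H2-Ob and -1.96 for H2-DMb1.

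**Figure D3:**
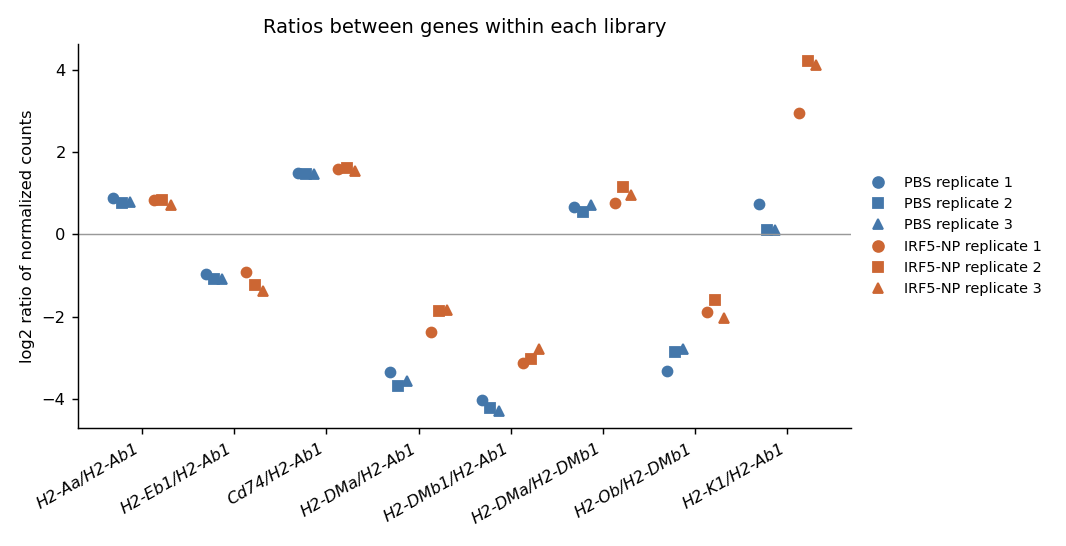
Log2 ratios of normalized counts between genes within each library, 1 point per library, PBS in blue and IRF5-NP in orange. The ratio H2-Aa/H2-Ab1 overlaps between groups, the ratios of the H2-DM genes to H2-Ab1 are higher by 1.16 to 1.47 with IRF5-NPs, and H2-K1/H2-Ab1 is higher by 3.33.

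Class I molecules, which display peptides from the cytosol to CD8+ T cells, served as a reference. By limma none of the 7 class I rows was past the threshold (H2-M3 alone had an unadjusted p under 0.05, and the methods' t-test called none), and 2 of them, H2-Q2 and H2-Q10, lay under the background in every library. H2-D1, a classical class I chain, had 42918, 39724 and 38789 normalized counts with PBS and 42983, 76352 and 79963 with IRF5-NPs, and its log2 fold change was 0.64 (standard error 0.42; adjusted p = 0.418 by limma). H2-K1, the other classical class I chain, had 41145, 39530 and 38147 with PBS and 32770, 62960 and 62589 with IRF5-NPs, and its log2 fold change was 0.34 (standard error 0.42; adjusted p = 0.703 by limma). In both, IRF5-NP replicates 2 and 3 were above all PBS libraries, while replicate 1 was level with PBS in H2-D1 and below it in H2-K1. The nonclassical genes H2-T23 and H2-Q1 had log2 fold changes of 0.50 and 0.41, and H2-M3, which presents formylated peptides, had -0.74 (limma adjusted p = 0.0842). Without PBS replicate 1 those of H2-T23 and H2-Q1 were 0.21 and 0.13. That of H2-K1 lay between 0.18 and 0.65 with 1 library left out. With quantile normalization H2-D1 passed (0.84, limma adjusted p = 0.0374), and with 6 separate samples H2-M3 did (-0.68, limma adjusted p = 0.0451). Class I genes are similar in sequence, and cross-binding of their probes was not tested. Within a library, H2-K1 was higher relative to H2-Ab1 by 3.33 on the log2 scale with IRF5-NPs.

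**Figure D4:**
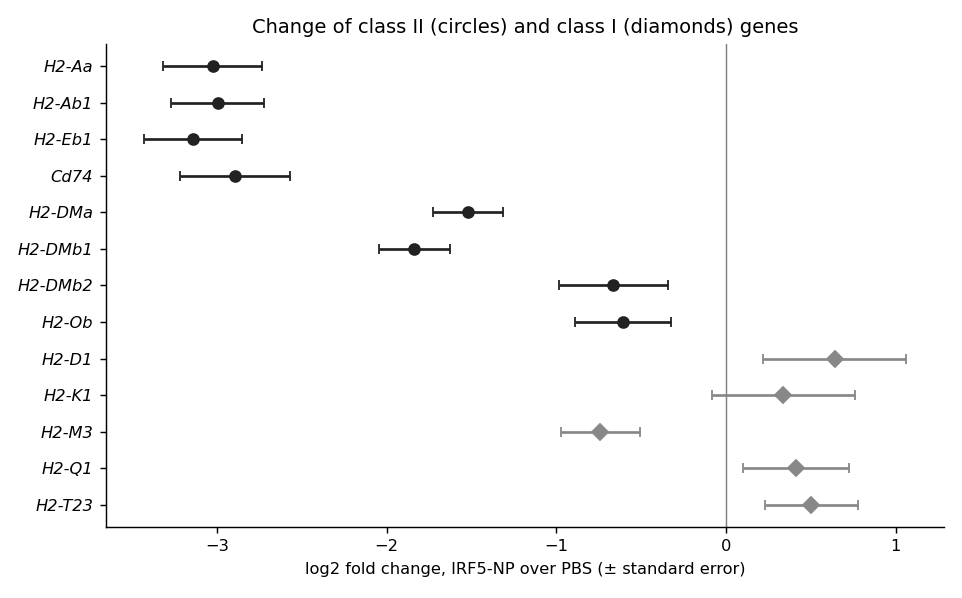
Log2 fold change of IRF5-NP over PBS with its standard error (2 PBS and 3 IRF5-NP samples) for the 8 class II genes above background (circles) and the 5 class I genes above background (diamonds). The classical chains and Cd74 lie near -3, H2-DMa and H2-DMb1 between -1.84 and -1.52, and the class I genes between -0.74 and 0.64.

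Other genes of the presentation pathway were described from lists chosen with earlier results of these data known. Of the 7 measured genes that serve class I loading, Tap1, a subunit of the transporter that brings peptides into the endoplasmic reticulum, fell from 1600, 1853 and 1809 normalized counts to 948, 1089 and 933 (log2 fold change -0.79, standard error 0.20, limma adjusted p = 0.0459). Its partner Tap2 was at -0.14, and the immunoproteasome subunits Psmb8 and Psmb9 were at -0.49 and -0.42, and none of these passed. The call on Tap1 was lost without PBS replicate 1 (-0.89), without IRF5-NP replicate 1 (-0.76), 2 (-0.86) or 3 (-0.75), and with libraries shifted to a common median (-0.55, adjusted p = 0.116), with quantile normalization (0.121), with background subtracted (0.0950) and without the mean-variance trend (0.105).

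None of the 7 measured genes upstream of class II passed, and their log2 fold changes lay between -0.42 and 0.40. Irf8, a macrophage transcription factor, had 922, 950 and 890 normalized counts with PBS and 570, 700 and 829 with IRF5-NPs (log2 fold change -0.41, limma adjusted p = 0.313). Ifng, the gene of interferon-γ, lay under the background in every library. Nfyc, a subunit of the factor that binds the Y box, was at -0.18 (standard error 0.20). Irf5, the delivered gene, had 2573, 1991 and 1929 normalized counts with PBS and 1960, 2358 and 2294 with IRF5-NPs. The groups overlapped, and the delivered message is codon optimized per the paper's methods, so whether the probe can bind it is not known.

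Of 3 endosomal proteases none passed. Ctss, the protease known for the last trimming step of the invariant chain, had 50041, 45891 and 44879 normalized counts with PBS and 24765, 38473 and 43480 with IRF5-NPs, and its log2 fold change was -0.46 (standard error 0.38). Ctsl was at -0.34 and Ctsd at 0.66.

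Of 5 genes listed as restraining class II, Cd83 passed as lower, but Cd83 is itself known to keep class II at the cell surface. It fell from 1744, 903 and 880 normalized counts to 331, 566 and 473 (log2 fold change -1.48, standard error 0.34, limma adjusted p = 0.0361), and the call was lost without PBS replicate 1 (-0.998), without IRF5-NP replicate 1 (-1.27) or 3 (-1.52) and with a common median (-1.24). It was also lost with quantile normalization (adjusted p = 0.0759), with background subtracted (0.215) and without the mean-variance trend (0.0873). Il10, which lowers class II in macrophages, had 104, 40.4 and 45.1 normalized counts with PBS and 17.1, 19.8 and 28.6 with IRF5-NPs. All IRF5-NP values lay under the background, so no fold is given, and the gene did not pass (limma adjusted p = 0.0647, 0.396 without PBS replicate 1), but it did with array weights (0.0429).

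Of 9 T cell costimulation genes 1 passed. Cd274, which encodes the inhibitory ligand PD-L1 and is induced by interferon-γ, fell from 2494, 2718 and 2660 normalized counts to 505, 782 and 608 (log2 fold change -2.06, standard error 0.24, limma adjusted p = 0.0019). It passed with each library left out in turn. Icosl, the ligand of ICOS, was at -0.88 (limma adjusted p = 0.0503) and passed in 6 of the 17 alternatives (lowest adjusted p = 0.0111), and the T cell activating ligands Cd80 and Cd86 were at 0.47 and -0.21 and did not pass.

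The genes whose profile over the 6 libraries was most like that of the classical chains were found among 539 genes above background in every PBS library, as the root-mean-square difference of centered log2 values. Among the closest were Mmp12 (0.31), Ccl12 (0.33), Cxcl9 (0.38) and Ccl2 (0.41), all of them lower with IRF5-NPs. Cd74 differed from the chains by 0.09, while H2-DMb1 and H2-DMa, at 0.64 and 0.82, were less like the chains than these 4 genes. Mmp12, a macrophage elastase, had 431, 491 and 508 normalized counts with PBS and 95.2, 79.4 and 67.6 with IRF5-NPs, where replicate 3 lay under its background. These likenesses follow from the same comparison and carry no test.

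Among markers of the cells that the sort gate could hold, those that passed were higher with IRF5-NPs, apart from Itgax, which was lower. The 6 measured markers of large resident macrophages summed to 14626, 27150 and 26744 normalized counts with PBS. With IRF5-NPs they summed to 36113, 75120 and 72435, and no marker was at 0. Adgre1 was the most abundant of them in PBS replicate 1 and in IRF5-NP replicates 2 and 3. In PBS replicates 2 and 3 and in IRF5-NP replicate 1 it was Alox15. Of the 6 markers, 3 rose and none fell. Timd4, a receptor for dying cells, went from 124, 197 and 207 normalized counts to 472, 1182 and 1263 (log2 fold change 2.48, limma adjusted p = 0.0155). Cxcl13 and Selp had log2 fold changes of 2.01 and 2.19 (limma adjusted p = 0.0155 and 0.0423), and Gata6, the defining factor of these cells, had 1.06 (limma adjusted p = 0.0746). The calls on Timd4 and Cxcl13 were lost without PBS replicate 1 (2.14 and 1.99) and without IRF5-NP replicate 3 (2.23 and 1.81), and that on Selp without PBS replicate 1 (1.38) or any 1 IRF5-NP replicate (1.96 to 2.58). With background subtracted all of these calls were lost (adjusted p = 0.158 for Timd4, 0.132 for Cxcl13 and 0.266 for Selp), and without the trend that on Selp (0.0928). Gata6 passed with a common median (1.30, adjusted p = 0.0414), with 6 separate samples (0.0461), with the replicate block (0.00819), with array weights (0.0169) and without IRF5-NP replicate 1 (0.0338). The part of these markers in the class II result was not tested.

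The 7 measured markers of small and monocyte-derived macrophages summed to 34410, 36067 and 35082 normalized counts with PBS and to 24718, 47301 and 44520 with IRF5-NPs, of which Itgam was the most abundant. None passed and none was at 0. Ccr2, the monocyte chemokine receptor, had 1450, 1056 and 1038 with PBS and 1593, 937 and 951 with IRF5-NPs, and Fcgr1, a receptor for IgG, was at -0.86 on the log2 scale (limma adjusted p = 0.0664). Fcgr1 passed with 6 separate samples (adjusted p = 0.0182) and with the replicate block (0.0119).

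Dendritic cells also carry class II, and their 7 measured markers summed to 402, 447 and 439 normalized counts with PBS and to 229, 186 and 247 with IRF5-NPs. Itgax, the gene of CD11c, was the most abundant of them in each PBS library, while Ccr7 lay above it in IRF5-NP replicates 1 and 3. Itgax fell from 145, 204 and 192 to 40.9, 48.5 and 46.8 (log2 fold change -1.88, standard error 0.27, limma adjusted p = 0.00589), with IRF5-NP replicate 3 under its background. With background subtracted the call was lost (-4.93, adjusted p = 0.267). The other 6 did not pass. Xcr1, a defining marker, lay under the background in every library, and none was at 0. For B cells the measured marker was Ms4a1, at 25.9, 18.6 and 16.3 normalized counts with PBS and 50.5, 60.6 and 75.4 with IRF5-NPs. It lay above background in IRF5-NP replicates 1 and 2 only, so no fold is given. Its call as higher (limma adjusted p = 0.0351) was lost with background subtracted (adjusted p = 0.518), without PBS replicate 1 and without any 1 IRF5-NP replicate. For T and NK cells it was Nkg7, under the background throughout.

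The 14 granulocyte and mast cell markers summed to 6778, 2336 and 2315 normalized counts with PBS. With IRF5-NPs they summed to 2702, 1699 and 2027, and no marker was at 0. S100a8 was the most abundant of them in each PBS library and in IRF5-NP replicate 1, while Csf3r lay above it in IRF5-NP replicates 2 and 3. S100a8, a neutrophil alarmin, had 3405, 1171 and 1189 normalized counts with PBS and 987, 512 and 686 with IRF5-NPs, so that the groups were separate (log2 fold change -1.51, limma adjusted p = 0.0767, not past the threshold). Its partner S100a9 had 2598, 458 and 429 with PBS and 724, 93.7 and 72.8 with IRF5-NPs (log2 fold change -2.65, limma adjusted p = 0.161), with overlap and with IRF5-NP replicate 3 under the background. Csf3r, the receptor for the granulocyte growth factor G-CSF, rose (log2 fold change 0.88, limma adjusted p = 0.0459), but its call was lost without PBS replicate 1 (0.91) and without IRF5-NP replicate 2 (0.84) or 3 (0.77), with background subtracted (adjusted p = 0.126) and without the trend (0.105). Cpa3, a mast cell protease, had 8.30, 15.5 and 12.5 normalized counts with PBS and 53.3, 30.9 and 39.0 with IRF5-NPs, above background in IRF5-NP replicates 1 and 2 only, and no fold is given. Its call as higher (limma adjusted p = 0.0327) was lost with background subtracted (adjusted p = 0.528), without PBS replicate 1 and without any 1 IRF5-NP replicate. The part of these markers in the class II result was not tested. The class II median was -2.57 without PBS replicate 1, the library with the most S100a8. That library also differed from the other PBS libraries in genes such as Cd83 and Alox15, so leaving it out does not single out S100a8.

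**Figure D5:**
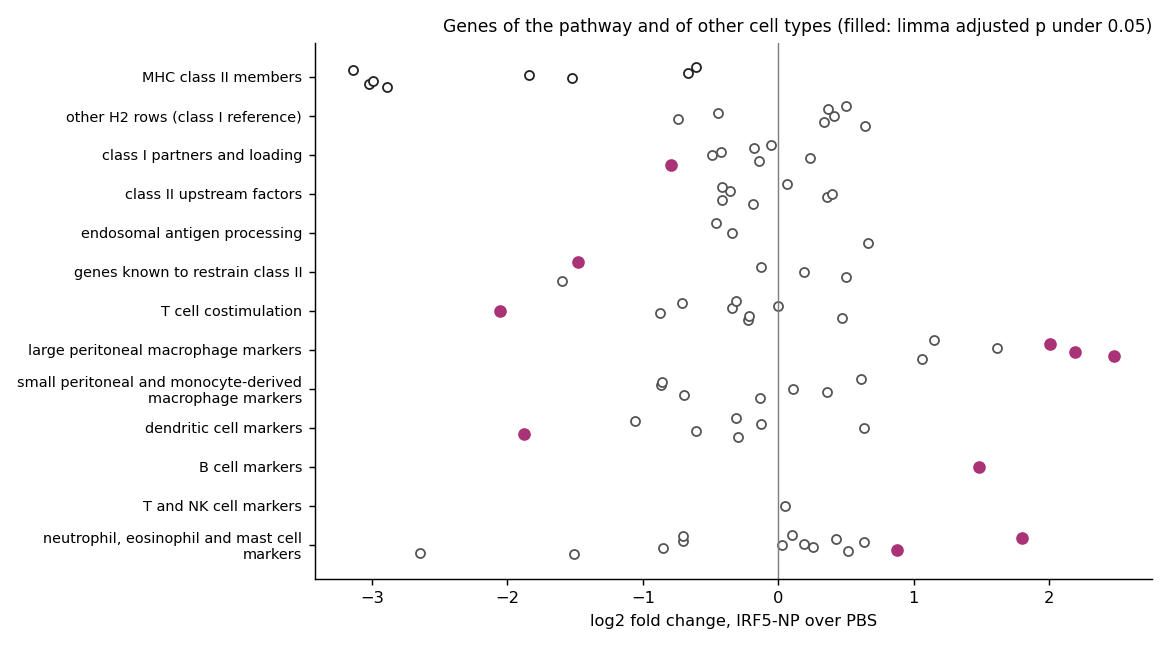
Log2 fold change of IRF5-NP over PBS for each measured gene, 1 row of points per gene list; filled points have a limma adjusted p under 0.05, and class II genes are shown open because they are given without a test (H2-Ea-ps, under the background, is left out). The class II genes lie left of 0, the large resident macrophage markers right of 0 between 1.06 and 2.48.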

How the data were processed

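Peritoneal macrophages from 3 PBS and 3 IRF5-NP libraries were analysed, grouped by their labels. The deposited values are a signal, the nCounter count of 768 probes (754 genes, 8 negative and 6 positive controls) that the authors multiplied by a housekeeping factor per sample. The paper's methods state NanoStringQCPro and nSolver for the cultured macrophages. Within 0.01 normalized counts all 754 values in each library were whole multiples of 1 factor (0.952 to 2.60), which gave the counts used for depth, shares and the chi-square test of replicates. In the IRF5-NP libraries no gene had a value of 1 count, so the factor there is the largest that fits, and is less certain than in the PBS libraries. Control probes were deposited as unscaled counts and multiplied by this factor.

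Groups were compared by two-sided tests with limma 3.58.1 (R 4.3.3), after 1 was added to each value and log2 taken, using a mean-variance trend. Benjamini-Hochberg adjustment ran over 754 genes at 0.05. Fold changes are on this scale. The p-values measure the spread between these samples, which may be technical. The script was tested on simulated data. Named genes were all class II members, all other H2 rows, genes of the lists that passed, with others by role or range, the 5 most similar genes and Irf5, of which some are not reported here. Members and lists were chosen with earlier results of these data known. Of 754 symbols, 744 matched RefSeq by symbol and 9 by synonym. In all, 17 alternatives were run.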

Additional observations from a re-analysis of the deposited data

How the results depend on the processing

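The 5 samples were few, IRF5-NP replicate 3 had a background of 79.4 normalized counts, and housekeeping scaling carries every level. The class II median of -2.36 was -2.13 with libraries set to a common median and -2.17 with quantile normalization, which moved the median of all genes from -0.03 to 0.21 and 0.11, and -2.57 to -2.30 with 1 library left out. Neither this median, nor that of class I, nor the fold change of any single gene recomputed under the 17 alternatives changed sign. The class I median over genes above background was 0.41, and 0.21 to 0.66 with 1 library left out. Of 754 genes, 72 passed (19 higher, 53 lower), and of 66 genes on the pathway and cell marker lists 10 (6 higher, all cell markers, and 4 lower, which were the pathway genes Tap1, Cd83 and Cd274 and the marker Itgax). Higher calls were 26.4% of these 72, 53.8% with a common median (42 higher, 36 lower; listed genes 2 lower) and 46.7% with quantile normalization (35 higher, 40 lower; listed genes 2 lower). With 6 separate samples 121 passed (37 higher, 84 lower; listed genes 8 lower), with array weights 125 (42 higher, 83 lower; listed genes 17, 9 higher, 8 lower), without the trend 41 (8 higher, 33 lower; listed genes 6, 4 higher, 2 lower) and with background subtracted 27 (5 higher, 22 lower; listed genes 1, 0 higher, 1 lower). The methods' t-test called 0 genes in either direction, listed genes included, after Benjamini-Hochberg or Benjamini-Yekutieli adjustment, where 125 had an unadjusted p under 0.05 (191 with limma). With 1 library left out 21 to 83 passed (2 to 24 higher, 19 to 59 lower; listed genes 2 to 11, 0 to 6 higher, 2 to 5 lower), the fewest (21) when IRF5-NP replicate 3 was dropped, and 35 when PBS replicate 1 was. With the replicate number as a block over 6 separate samples 135 passed (52 higher, 83 lower; listed genes 17, 9 higher, 8 lower), but deviations of same-numbered libraries correlated by 0.16, 0.18 and 0.10 across 482 genes and PBS replicate 3 correlated best with IRF5-NP replicate 2 (0.14), so the numbers were not taken to pair the samples. The cause of these shifts was not tested. The planned count-based test was not run.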

Other observations

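The IRF5-NP libraries differed among themselves in several highly expressed genes. Itgam, the gene of CD11b, had 15177 normalized counts in IRF5-NP replicate 1 and 36473 and 34393 in replicates 2 and 3, against 15550, 19762 and 19441 with PBS. Adgre1 spread over 1.54 on the log2 scale among the IRF5-NP libraries, Itgam over 1.26, H2-K1 over 0.94 and H2-D1 over 0.90, each with replicate 1 lowest. H2-Aa, H2-Ab1, H2-Eb1, Cd74 and H2-DMb2 had replicate 1 highest, with spreads of 0.37, 0.32, 0.71, 0.29 and 0.88, while H2-DMa had it lowest (0.28) and H2-DMb1 (0.31) and H2-Ob (0.12) had it in the middle. Ctsd, the lysosomal protease with the highest counts of the panel, had 95537, 161844 and 147837 normalized counts with IRF5-NPs and 93804, 74368 and 72848 with PBS.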
